A study of Homo sapiens with 6 samples.

Results

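The genes described here encode the machinery that makes, stores and breaks down acetylcholine and the neuronal nicotinic receptors that respond to it. They were taken by symbol and comprised 10 of the 60651 genes in the deposited gene tables: CHAT, SLC18A3, SLC5A7, ACHE, CHRNA3, CHRNA5, CHRNB4, CHRNA7, CHRNA4 and CHRNB2. Gene-level RNA counts were available for 6 ribodepleted total RNA libraries of a human neuroblastoma cell line, 3 of them titled EtOH (ethanol, the control arm) and 3 titled Tet, for tetracycline, which was given for 5 days. The titles name the line IMR575 and the characteristics name the arms Control and Induction under the heading knockdown, whereas the growth text describes SK-N-SH cells with a tetracycline-inducible MYCN construct kept as single clones under selection. The study's methods describe inducible MYCN expression in SK-N-AS cells as well as inducible MYCN knockdown in the MYCN-amplified line IMR-5/75. These sources do not settle whether tetracycline was meant to raise or to lower MYCN, so the groups are called EtOH and Tet throughout, and no direction of MYCN is assumed. The study's methods give 3 independent biological replicates as the default for work in vitro. Nothing in the labels says whether the libraries of a group came from separate cultures, so the tests measure the spread between these libraries, which may be technical.

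Acetylcholine is made by choline acetyltransferase (CHAT) from choline brought in by the high-affinity transporter SLC5A7, is packed into vesicles by the vesicular transporter SLC18A3, and is split outside the cell by acetylcholinesterase (ACHE). Nicotinic receptors are pentameric cation channels: the α3 and β4 subunits (CHRNA3, CHRNB4), with or without the accessory α5 subunit (CHRNA5), form the main receptor of autonomic ganglia, α4 with β2 (CHRNA4, CHRNB2) the main heteromeric receptor of the brain, and α7 (CHRNA7) a homomeric receptor. Neuroblastoma arises from the sympathoadrenal lineage, in which ganglionic nicotinic receptors carry the preganglionic signal and most mature neurons release noradrenaline.

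The libraries held 27933378 to 40498065 counts. MYCN, the gene the construct addresses, was measured at 158, 256 and 156 CPM (counts scaled to the size of the library) in EtOH libraries 1, 2 and 3 and at 197, 200 and 145 CPM in Tet libraries 1, 2 and 3. The groups overlapped, and the log2 fold change of Tet against EtOH was −0.07 ± 0.23 (SE, adjusted p = 0.956, edgeR quasi-likelihood test). The check of the labels therefore showed no separation of the arms by MYCN. The sympathoadrenal regulators GATA3 (229 to 334 CPM) and HAND2 (60.1 to 137 CPM) were present in every library, PHOX2A lay at 4.58 to 23.4 CPM and GATA2 at 0.279 to 1.48 CPM, whereas the catecholamine enzymes TH and DBH did not exceed 0.0252 and 0.453 CPM. Of the mesenchymal-state markers, VIM (146 to 265 CPM), TWIST1 (43.3 to 107 CPM), PRRX1 (33.6 to 136 CPM), FN1 (46.4 to 70.0 CPM), YAP1 (14.6 to 44.6 CPM), SNAI2 (0.826 to 16.3 CPM) and CD44 (3.88 to 6.58 CPM) were measured, and FOSL1 stayed at or under 0.0361 CPM. Of 12 markers of fibroblasts, Schwann cells and blood, 6 passed the filter on low counts, their summed level was 3.67 to 4.68 TPM (counts scaled to gene length and library size) in EtOH and 2.29 to 5.14 TPM in Tet, and COL1A2, S100B and HBB were at 0 in all 6 libraries.

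Of the 10 genes, only the α3 and α5 subunits were abundant. On the length-adjusted TPM scale, computed from the counts and the exon length of each gene, CHRNA5 averaged 93.9 TPM ± 11.1 and CHRNA3 74.8 TPM ± 14.6 (SD over 6 libraries). These levels placed them 781st and 1108th among 19946 protein-coding genes. CHRNB4 followed at 3.22 TPM ± 1.37 and CHRNB2 at 0.908 TPM ± 0.442, and the other 6 genes averaged 0.00753 to 0.200 TPM. The sizes of all TPM values depend on the mitochondrial transcripts in the total: without them CHRNA5 averaged 153 TPM and CHRNA3 122 TPM.

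**Figure D1:**
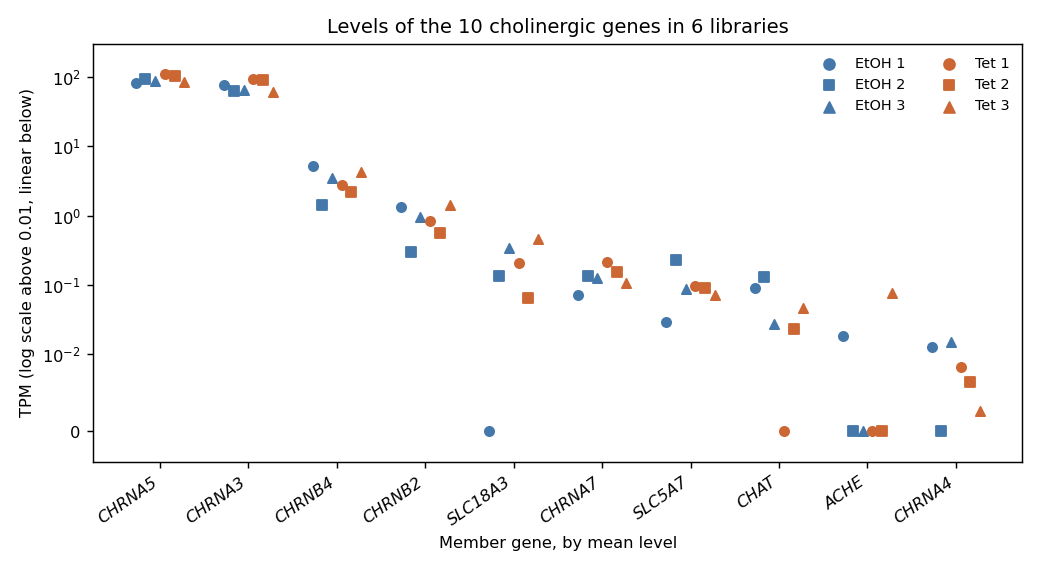
Level of each of the 10 genes in TPM (vertical axis, logarithmic above 0.01 and linear below) in the 6 libraries, ordered by mean level; each point is 1 library, colour gives the group and shape the replicate number. CHRNA5 and CHRNA3 lie between 60.5 and 110.4 TPM, CHRNB4 between 1.41 and 5.13 TPM, and the 4 genes of acetylcholine synthesis, storage and breakdown at or below 0.458 TPM.

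CHRNA5 was above CHRNA3 in TPM in 6 of 6 libraries, although the ranges over libraries overlapped (82.0 to 110.4 against 60.5 to 92.6 TPM). CHRNB4 was below CHRNA3 in every library with no overlap of ranges, at a 23.2-fold lower mean. CHRNB4 exceeded CHRNB2, and CHRNB2 exceeded SLC18A3, in 6 of 6 libraries, but the range of each overlapped that of the next. Below CHRNB2 every neighbouring pair in the order overlapped, and none of these orders held in all 6 libraries.

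The genes of acetylcholine synthesis, storage and breakdown were at the limit of detection. CHAT was counted 8, 8 and 2 times in EtOH libraries 1 to 3 and 0, 2 and 5 times in Tet libraries 1 to 3. Its 25 counts over 6 libraries compare with a limit of 3 counts per library, which equals 0.0741 to 0.107 CPM at these depths. SLC18A3, which lies within the CHAT gene on the same strand, was counted 0, 3 and 9 times in EtOH and 5, 2 and 18 times in Tet. SLC5A7 was counted 2, 11 and 5 times in EtOH and 5, 6 and 6 times in Tet. ACHE was counted 1 time in EtOH library 1, 5 times in Tet library 3 and 0 times in the other 4. All 4 genes failed the filter on low counts, and their groups overlapped. The summed counts gave ratios of Tet to EtOH of 0.34 for CHAT (95% interval 0.12 to 0.853), 1.82 for SLC18A3 (0.881 to 3.98) and 0.825 for SLC5A7 (0.4 to 1.7), where the intervals are exact and cover counting error only, and the CHAT interval takes no account of the spread from 0 to 8 counts between libraries. Single libraries decided these ratios. Tet library 3 held 18 of the 25 Tet counts of SLC18A3 (67.2% GC), and it is the library in which tested genes of 65% GC or more lay at a median of 1.44 above their mean (log2 CPM). Without it the SLC18A3 ratio was 0.827, and without EtOH library 1 or 3 it was 1.15 or 4.97. The CHAT ratio was 0.158 without Tet library 3, and the SLC5A7 ratio was 1.46 without EtOH library 2. Transcripts of these genes were thus not measurable with useful precision at this depth, and differences between the groups were not detectable.

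The low values have to be read beside the base composition of the genes, because the level of protein-coding genes fell steeply with the GC content of their exons in these libraries. The median was 22.6 TPM for the 2930 genes under 40% GC, 0.944 TPM for the 3196 genes at 50 to 55% and 0.0902 TPM for the 648 genes at 65% or more. ACHE (64.9% GC), CHRNA4 (63.5%) and SLC18A3 (67.2%) belong to the GC-rich classes, and in their classes 26.2%, 22.9% and 64.2% of genes lay lower. SLC5A7 (39.0% GC) and CHRNA7 (45.2%) do not, and in their classes 18.7% and 28.8% of genes lay lower. CHAT (54.0% GC) exceeded 29.6% of its class. CHRNA3 (52.2% GC) exceeded 99.2% and CHRNA5 (41.9% GC) 93.1% of their classes. The part of GC content in the level of any 1 gene was not tested.

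**Figure D2:**
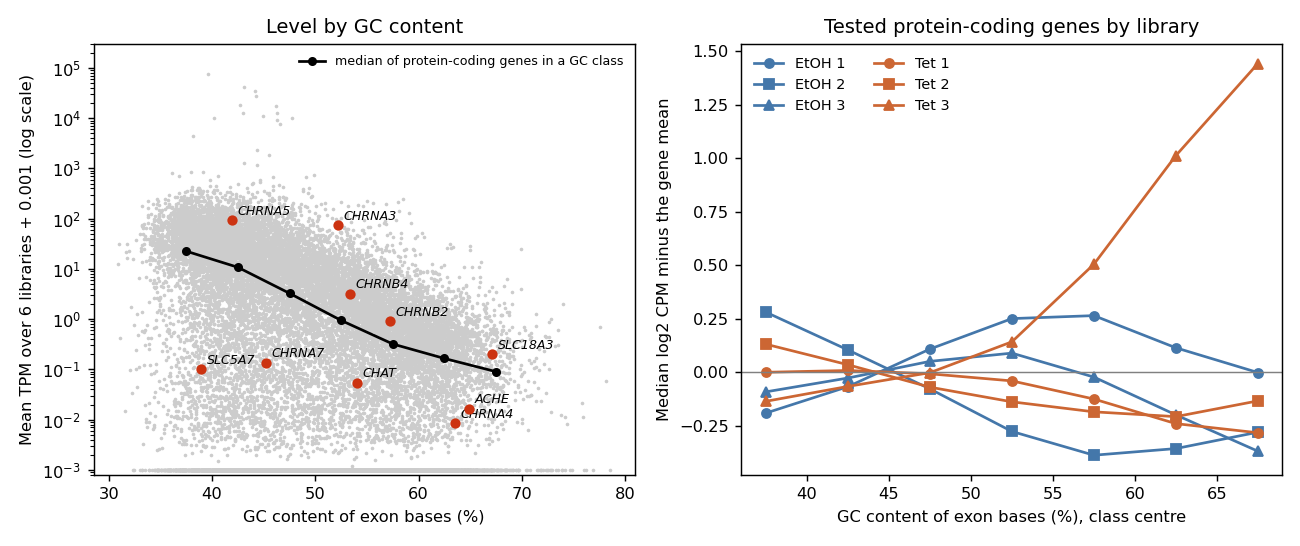
Left, mean TPM over 6 libraries (plus 0.001, logarithmic axis) against exon GC content for protein-coding genes (grey), with the median of each GC class (black) and the 10 cholinergic genes (red). Right, for tested protein-coding genes, the median log2 CPM of each library relative to the gene mean by GC class, with the open-ended outer classes drawn at the edge; Tet library 3 reaches 1.44 in the class of 65% or more, and EtOH library 2 lies at −0.39 in the class of 55 to 60%.

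CHRNA5, CHRNA3 and CHRNB4 are neighbours on chromosome 15 (GRCh38). CHRNA5 lies on the plus strand at chr15:78565520-78595269, CHRNA3 on the minus strand at chr15:78593052-78621295, and CHRNB4 on the minus strand at chr15:78624111-78727754. CHRNA3 and CHRNA5 overlap at their 3′ ends by 198 exon bases on opposite strands. A further 832 exon bases of CHRNA5, 23.0% of its exon length, are shared with a lncRNA on the opposite strand (ENSG00000261762), which was itself measured at 68.0 to 110.5 TPM. The counting took no account of strand, so reads in the shared 28.4% of CHRNA5 exon bases cannot be assigned to 1 gene, and CHRNA5 levels are uncertain to that extent. CHRNB4, adjacent to CHRNA3 and transcribed in the same direction, reached 5.13 TPM at most.

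**Figure D3:**
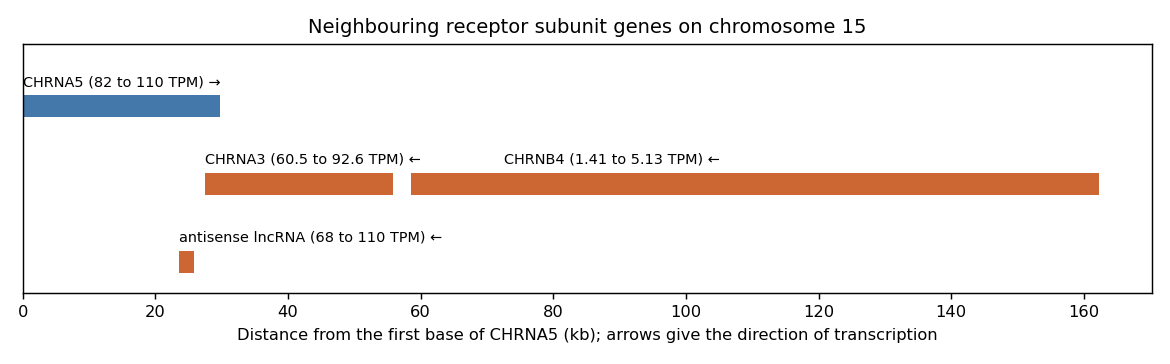
Map of the gene bodies of CHRNA5 (plus strand, blue) and CHRNA3, CHRNB4 and the antisense lncRNA (minus strand, orange), as distance in kb from the first base of CHRNA5, with the range of TPM over 6 libraries. CHRNA5 and CHRNA3 reach 110.4 and 92.6 TPM, and CHRNB4 reaches 5.13 TPM.

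Among all 16 nicotinic subunit genes, CHRNA3 and CHRNA5 together held 74.5 to 78.0% of the summed TPM in the EtOH libraries and 81.0 to 86.0% in the Tet libraries. Most of the rest was CHRNA1, the muscle α1 subunit, with 18.7 to 24.1% in EtOH and 11.6 to 17.4% in Tet. The shares are parts of 1 total and do not move independently, and their difference between the groups was not tested. None of CHRNA1, CHRNA3 and CHRNA5 was called between the groups (adjusted p = 0.539, 0.595 and 0.612, edgeR). The share of CHRNB4 was 0.668 to 2.49%, and that of CHRNB2 was 0.142 to 0.836%. CHRNA7 held at most 0.0916% and CHRNA4 at most 0.00767%.

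The promoters of the genes were examined for the E-box CACGTG, the element that MYC-family proteins bind, because the design addressed MYCN. RefSeq promoter windows (GRCh38.p14, 250 bases before to 50 after a start) were at hand for 8 of the 10 genes in 13 windows. None was at hand for CHRNA5 or CHRNA4. The E-box, which reads the same on both strands, occurred in 3 of the 13 windows, compared with 7.26% of all 35116 windows in the table. The matches lie in both CHRNA7 windows, which overlap and share 1 site, and in 1 of 3 ACHE windows. The sites are shown with the motif in capitals, 5′ to 3′ on the strand of the gene.
ACHE, chr7:100896125-100896154, minus strand: ccgtctgtctgtCACGTGggtgtctactcc
CHRNA7, chr15:32030422-32030451, plus strand: ggcggggctcgtCACGTGgagaggcgcgcg
Neither of these 2 genes exceeded 0.216 TPM in any library. The windows of the abundant CHRNA3 and of CHRNB4 held no E-box, which says only that these letters are absent from the windows.

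The GC box GGGCGG, an element bound by SP1-family factors and searched on both strands, occurred in 11 of the 13 windows and in 45% of all windows. CHRNA3 held 4 and CHRNB4 held 3, and the most upstream site of each is shown with the motif in capitals, to set the start regions of the abundant and the scarce neighbour side by side.
CHRNA3, chr15:78621025-78621054, minus strand: cgcacgtacgccCCGCCCcgcgcacgcccg
CHRNB4, chr15:78641308-78641337, minus strand: cagggggcgtcgGGGCGGagcagcgggccc
The windows of CHRNA3 and CHRNB4 had the same GC content of 72.7%. The CHRNB4 window (chr15:78641161-78641460) lies inside the gene as counted, whose 5′ end on the minus strand is at 78727754. The part of this motif in the levels of the 2 genes was not tested. A match is a description of the letters and not evidence of binding.

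Tet was compared with EtOH in the 5 genes that passed the filter on low counts, CHRNA3, CHRNA5, CHRNB4, CHRNA7 and CHRNB2. None of them was called at an adjusted p of 0.05 (0 of 5, edgeR), where 0.236% of all 22443 tested genes were called. None had an unadjusted p under 0.05 either, against 10.8% of all tested genes, and DESeq2 and limma-voom also called 0. The median log2 fold change of the 5 genes was 0.23, beside −0.01 over all tested genes. In such bulk RNA a lower level cannot be told apart from fewer cells carrying the transcript.

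CHRNA5 was the only 1 of the 5 whose groups did not overlap in TMM-scaled CPM, a separation seen in 17.5% of all tested genes. In TPM its groups overlapped, with 82.0, 95.2 and 88.7 TPM in EtOH and 110.4, 102.9 and 84.3 TPM in Tet. It was measured at 110.2, 117 and 118 CPM in EtOH libraries 1, 2 and 3 and at 142, 137 and 125 CPM in Tet libraries 1, 2 and 3. The fold change was 1.17 (log2 0.23 ± 0.13 SE, adjusted p = 0.612), and over 17 alternative analyses the log2 fold change ranged from 0.18 to 0.28 and the adjusted p from 0.257 to 0.954. The antisense lncRNA that shares exon bases with CHRNA5 averaged 65.2 CPM ± 13.5 in EtOH and 79.1 CPM ± 5.94 in Tet (SD, n = 3 each), with a log2 fold change of 0.28 ± 0.19 (SE, adjusted p = 0.668), and its part in the CHRNA5 values was not tested.

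CHRNA3 was measured at 136, 100.1 and 114 CPM in EtOH and at 156, 161 and 118 CPM in Tet. Tet libraries 1 and 2 lay above all EtOH libraries, while Tet library 3 lay within their range. The log2 fold change was 0.32 ± 0.18 (SE, adjusted p = 0.595), and it stayed between 0.22 and 0.45 in the alternative analyses.

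CHRNA7 was measured at 0.558, 0.974 and 0.992 CPM in EtOH and at 1.63, 1.18 and 0.931 CPM in Tet, which rest on 20 to 46 counts per library. Its groups overlapped through Tet library 3, and the log2 fold change was 0.57 ± 0.41 (SE, adjusted p = 0.698). CHRNA7 has a partly duplicated relative, CHRFAM7A, and 53.6% of the 100-base windows of CHRNA7 exons occur identically at the CHRFAM7A locus, so that uniquely aligned reads reach only part of the gene and its level is uncertain. CHRFAM7A itself had a log2 fold change of −0.74 ± 0.50 (SE, adjusted p = 0.68).

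**Figure D4:**
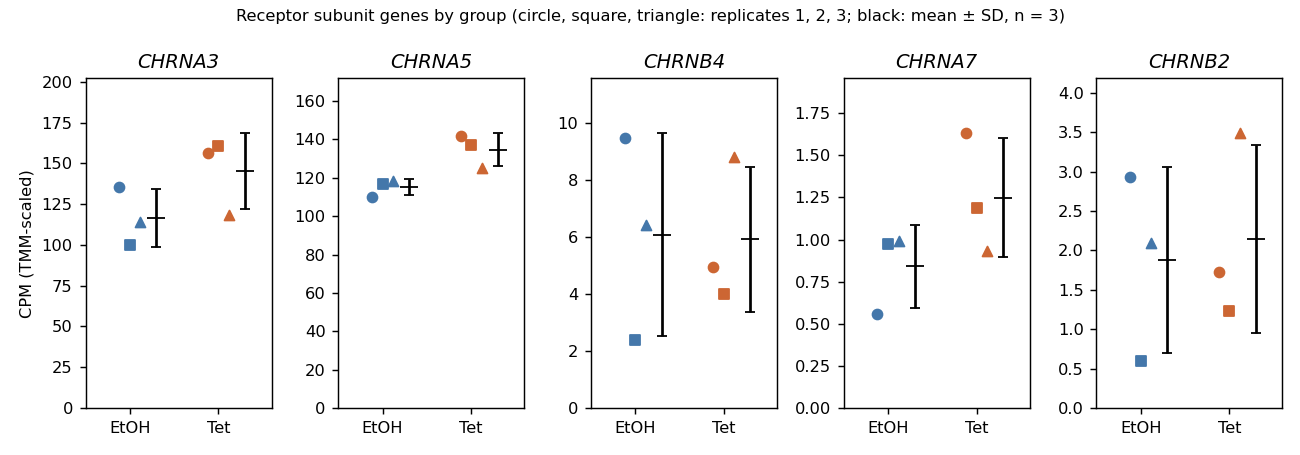
TMM-scaled CPM of the 5 tested subunit genes in each library of the EtOH and Tet groups, with the mean ± SD of 3 libraries in black; each panel has its own axis starting at 0. The Tet libraries of CHRNA5 (125 to 142 CPM) all lie above its EtOH libraries (110.2 to 118 CPM), and the groups of the other 4 genes overlap.

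CHRNA4, the α subunit of the main brain receptor, was counted 2, 0 and 2 times in EtOH and 1, 1 and 0.5 times in Tet. These values lie below the limit of 3 counts in every library, and no fold is given.

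Of the 5 tested genes, the β subunit genes varied most among libraries of the same group, relative to their mean. CHRNB4 was measured at 9.47, 2.38 and 6.41 CPM in EtOH and at 4.96, 4.005 and 8.81 CPM in Tet. CHRNB2 was measured at 2.93, 0.595 and 2.10 CPM in EtOH and at 1.72, 1.23 and 3.49 CPM in Tet. In both genes EtOH libraries 1 and 3 and Tet library 3 were high, and EtOH library 2 was the lowest of the 6. The log2 fold changes were −0.04 ± 0.49 for CHRNB4 (SE, adjusted p = 0.989) and 0.19 ± 0.59 for CHRNB2 (SE, adjusted p = 0.955). The direction of each turned when single libraries were left out. CHRNB4 ranged from −0.44 (without Tet library 3) to 0.41 (without EtOH library 1) and was positive without EtOH library 1 (0.41), Tet library 1 (0.06) or Tet library 2 (0.18). CHRNB2 ranged from −0.36 (without Tet library 3) to 0.65 (without EtOH library 1) and was also negative without EtOH library 2 (−0.23), so neither has a direction in these data.

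The log2 levels of CHRNB4 and CHRNB2 ran together over the 6 libraries (Pearson r = 0.988), whereas CHRNB4 and its neighbour CHRNA3 had an r of 0.183. Both β subunit genes followed the first principal component of all tested genes, which held 44.7% of the variance (r = −0.969 and −0.953), and CHRNA3 and CHRNA5 did not (r = −0.119 and 0.271). The points share their libraries and the base composition of the genes: CHRNB4 (53.4% GC) and CHRNB2 (57.2% GC) sit in GC classes in which EtOH library 2 lay at −0.28 and −0.39 and EtOH library 1 at 0.25 and 0.27 relative to the gene mean (median log2 CPM). The part of base composition in the pattern of the β subunits was not tested. The protein-coding genes most like CHRNB4 over these libraries, among 8233 genes of at least 5 CPM, were PIGS, FXR2 and RNPS1 (r = 0.997, 0.996 and 0.996). Those most like CHRNA3 were BCOR, HSDL1 and BIRC6 (r = 0.983, 0.978 and 0.966), and those most like CHRNA5 were ACTR10, TMEM9B and KLF12 (r = 0.99, 0.985 and 0.984).

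Ratios within a library cancel its scaling, but not differences between libraries that depend on GC content. The GC content differs within both pairs (CHRNA5 41.9% and CHRNA3 52.2%, CHRNB4 53.4% and CHRNB2 57.2%). Reads in the exon bases that CHRNA5 shares with the antisense lncRNA and CHRNA3 also enter its ratio. The part of GC content or of shared bases in the ratios was not tested. The ratio of CHRNA5 to CHRNA3 per exon base was 1.07, 1.53 and 1.36 in EtOH libraries 1, 2 and 3 and 1.19, 1.12 and 1.39 in Tet libraries 1, 2 and 3. The groups overlapped, with a difference of −0.09 in the mean log2 ratio (exact two-sided permutation test, p = 0.8, where 3 against 3 libraries cannot give less than 0.1). Without EtOH library 2 the difference was 0.03. The ratio of CHRNB4 to CHRNB2 was 3.82, 4.72 and 3.61 in EtOH and 3.41, 3.85 and 2.98 in Tet. It was thus above 1 in 6 of 6 libraries, and the groups overlapped with a difference of −0.24 in the mean log2 ratio (exact two-sided permutation test, p = 0.3).

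The wider pathway comprised 53 further genes, of which 31 passed the filter. Of these 31, 0 were called at an adjusted p of 0.05 (edgeR). An unadjusted p under 0.05 (edgeR) was found for 9 of the 31, with 6 higher and 3 lower in Tet, compared with 10.8% of all tested genes. The groups did not overlap in 9 of the 31, compared with 17.5% of all tested genes. These were the same 9 genes, so the 2 counts are not separate support. Among the 9, CHRNA9 and LYPD6B passed the filter on low counts only through the group in which they were higher. Their place in these counts, and that of CHRNA9 in the calls below, is therefore no evidence of a difference. The median log2 fold change of the 31 genes was 0.23. The outcome depended on the analysis: without EtOH library 2, edgeR called 5 of 32 tested (BCHE, CHRM3, CHRNA9, ISL1 and NTRK3), where it called 692 of all 23935 genes (2.89%). DESeq2 called 6 of 48 (CHRM3, CHRNA9, GFRA2, ISL1, NTRK3 and TMEM35A), where it called 485 of all 40467 genes (1.2%). Leaving out any other library called 0.

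Among the other nicotinic subunits, 5 of 11 were tested. CHRNA9, which forms the cholinergic receptor of cochlear hair cells, was counted 3, 1 and 1 times in EtOH and 22, 24 and 32 times in Tet. CHRNA9 passed the filter on low counts only through the Tet libraries, so these counts are given as a description and no ratio is drawn from them. No fitted fold is given, because its EtOH counts did not exceed the limit of 3 in any library. Even in Tet its level was at most 0.805 CPM. CHRNA1, the most abundant of these genes at 36.6 TPM, was measured at 77.8, 85.7 and 67.3 CPM in EtOH and at 48.4, 76.7 and 41.7 CPM in Tet, and its log2 fold change was −0.47 ± 0.24 (SE, adjusted p = 0.539). CHRNB1, CHRND, CHRNG and CHRNE, its partners in the muscle receptor, did not exceed 0.0881, 1.06, 1.59 and 0.418 CPM. Of the exon bases of CHRNG 66.9%, and of CHRNE 59.6%, are shared with other genes, so the levels of these 2 are uncertain.

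Of the 5 muscarinic receptors, which are G protein-coupled, 3 were tested. CHRM3 was measured at 7.71, 7.25 and 7.92 CPM in EtOH and at 3.78, 3.06 and 3.79 CPM in Tet. All Tet values lay well below the EtOH values, with a log2 fold change of −1.11 ± 0.22 (SE, adjusted p = 0.0983, 0.00153 to 0.468 in the alternative analyses). CHRM2, the most abundant at 6.47 TPM, had a log2 fold change of 0.42 ± 0.32 (SE, adjusted p = 0.723).

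Proteins that help nicotinic receptors to fold or that bind them at the membrane formed a list of 13 genes, 5 of them tested. TMEM35A (NACHO) and RIC3, chaperones needed for the assembly of α7 receptors, had the 2 highest fold changes among these 5. TMEM35A was measured at 5.55, 5.81 and 4.83 CPM in EtOH and at 10.9, 11.0 and 8.73 CPM in Tet (log2 fold change 0.92 ± 0.21 SE, adjusted p = 0.145, 0.0179 to 0.644 in the alternative analyses). RIC3 was measured at 7.27, 3.21 and 7.47 CPM in EtOH and at 12.5, 7.80 and 11.5 CPM in Tet (log2 fold change 0.82 ± 0.35 SE, adjusted p = 0.442). The Ly6 protein gene LYPD6B averaged 0.504 CPM ± 0.0970 in EtOH and 0.161 CPM ± 0.0346 in Tet (SD, n = 3 each), and no test is given for it because its Tet libraries all lay under the filter. The other 8 genes of the list failed the filter on low counts and are not compared between the groups. UNC50, the most abundant of the list at 30.7 TPM, had a log2 fold change of −0.10 ± 0.18 (SE, adjusted p = 0.911).

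Of the transcription factors, receptors and ligands linked to cholinergic differentiation, 8 of 12 were tested, and their median log2 fold change was 0.49. None was called, and 3 had an unadjusted p under 0.05, all higher in Tet, against 10.8% of all tested genes in either direction. Noradrenergic genes were read beside this list. The 5 tested catecholamine genes had the same median of 0.49, and 2 of them were called higher in Tet. Over all tested genes, 0.236% were called in either direction. The 2 were the decarboxylase DDC and the noradrenaline transporter SLC6A2 (log2 fold change 1.87 ± 0.24 SE, adjusted p = 0.0332, edgeR). Of the SLC6A2 exon bases, 17.9% are shared with another gene on the same strand (ENSG00000278928). That gene was counted 118.5, 118 and 132 times in EtOH and 353, 709.5 and 412 times in Tet. Its part in the SLC6A2 values was not tested. Of the catecholamine genes, 0 were called on leaving out any library other than EtOH library 2. DDC was counted 6, 10 and 6 times in EtOH and 91, 104 and 94 times in Tet. Only 1 EtOH library reached the cutoff of the filter on low counts, so DDC passed it through the Tet libraries. Its place among the calls is therefore no evidence of a difference, and no fitted fold is given. Of 6 tested noradrenergic markers, none was called and 3 had an unadjusted p under 0.05, against 10.8% of all tested genes. The log2 fold changes of these 3 were 1.40 for PHOX2A, 1.75 for GATA2 and 0.36 for GATA3. PHOX2A (66.1% GC) was measured at 5.37, 4.58 and 5.14 CPM in EtOH and at 7.27, 9.14 and 23.4 CPM in Tet. In Tet library 3, tested genes of 65% GC or more lay at a median of 1.44 above their mean (log2 CPM). The part of GC content in the PHOX2A values was not tested. GATA2 was counted 10, 11 and 11 times in EtOH, where 2 libraries reached the cutoff of the filter, and 20, 46 and 59 times in Tet. A difference between these lists was not tested, and the part of the noradrenergic genes in the values of the differentiation list was not tested either. ISL1, a LIM homeodomain factor of sympathetic and cholinergic neurons, was measured at 41.3, 65.6 and 40.9 CPM in EtOH and at 109.7, 144 and 79.8 CPM in Tet (log2 fold change 1.18 ± 0.27 SE, adjusted p = 0.142, 0.00132 to 0.589 in the alternative analyses). NTRK3, the receptor of neurotrophin 3, averaged 0.555 CPM ± 0.113 in EtOH and 2.07 CPM ± 0.268 in Tet (SD, n = 3 each), with a log2 fold change of 1.90 ± 0.35 (SE, adjusted p = 0.0812). GFRA2, the neurturin co-receptor, averaged 18.9 CPM ± 2.03 in EtOH and 37.51 CPM ± 11.4 in Tet, with a log2 fold change of 0.99 ± 0.25 (SE, adjusted p = 0.181). LIFR, the receptor subunit through which cytokines switch sympathetic neurons to a cholinergic phenotype, was the most abundant at 105.7 TPM and had a log2 fold change of 0.36 ± 0.17 (SE, adjusted p = 0.508).

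Of the cholinesterase partners, 2 of 3 were tested. BCHE, butyrylcholinesterase, which also splits acetylcholine, was the most abundant at 9.90 TPM, far above the 0.0156 TPM of ACHE. It was measured at 15.1, 9.67 and 18.8 CPM in EtOH and at 8.61, 5.56 and 9.21 CPM in Tet (log2 fold change −0.90 ± 0.30 SE, adjusted p = 0.315, 0.0158 to 0.814 in the alternative analyses). Its exon GC content of 37.9% is well below the 64.9% of ACHE. Of the 9 genes of choline and acetyl-CoA supply, 8 were tested, none had an unadjusted p under 0.05, and their median log2 fold change was 0.19. SLC44A5, a choline transporter-like gene, was the most abundant at 136 TPM and had a log2 fold change of 0.10 ± 0.19 (SE, adjusted p = 0.916).

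**Figure D5:**
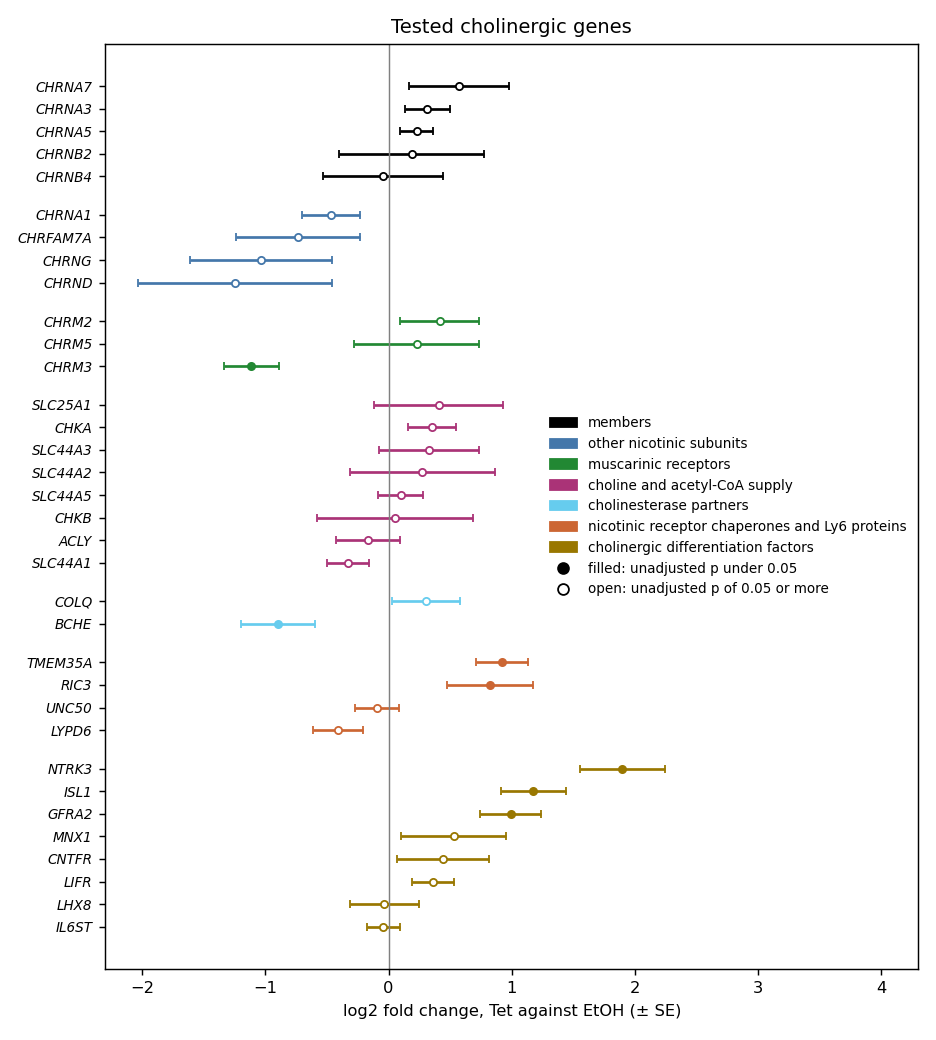
Log2 fold change of Tet against EtOH (horizontal axis, ± SE of the edgeR fit) for the 5 tested genes of the set (black) and the tested genes of the wider pathway, coloured by list, without CHRNA9 and LYPD6B, which passed the filter through 1 group only; filled points have an unadjusted p under 0.05 and none has an adjusted p under 0.05. NTRK3 lies at 1.90, and the black points lie between −0.04 and 0.57.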

How the data were processed

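RNA of 3 EtOH and 3 Tet libraries was sequenced by the authors after ribodepletion as stranded paired-end libraries and aligned to GRCh38 with STAR 2.7.1a per the labels. The deposited values are estimated counts per gene made by featureCounts (version 1.6.4 per the file headers and 1.5.1 per the labels), from unique alignments with overlapping genes sharing a read by fractions and without use of strand. Spike-in rows (92) were all at 0 and were left out. Of the gene identifiers, 99.6% had a symbol in the reference names.

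Counts were rounded, filtered with filterByExpr and scaled by TMM, and Tet was compared with EtOH by the quasi-likelihood test of edgeR 4.0.16 (R 4.3.3) with Benjamini-Hochberg adjustment over all tested genes and a threshold of 0.05. The SE was derived from the F statistic. The design foresaw raw counts, and estimated counts were treated the same way after rounding. TPM was computed from the unrounded counts and the exon lengths in the files. GC content was taken over the exon bases in GRCh38. Log2 levels for correlations carried a prior count of 2. Ratios were tested with exact permutation tests in scipy 1.17.1. Alternatives were limma 3.58.1 (voom), DESeq2 1.42.0, other scalings and filters, thinning, a replicate block and leaving out each library; a loess correction for GC content (span 0.3), the count ratios without each library and the alternatives for catecholamine genes were added after the data were seen. The procedure was tested on simulated data. The genes and lists were chosen with earlier results of these data known. Named genes were the 10 members, pathway genes with an unadjusted p under 0.05, the most abundant gene of each list, each marker by its range (some markers are not reported here), and the 3 genes most like each of the 3 tested members with the highest CPM.

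Depth was 27933378 to 40498065 counts per library, at which 3 counts equal 0.0741 to 0.107 CPM. Intervals and limits cover counting error only.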

Additional observations from a re-analysis of the deposited data

How the results depend on the processing

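No member gene was called in the main analysis or in any of the 17 alternatives (edgeR, limma-voom and DESeq2, which left low members without an adjusted p). Calls among the pathway genes went from 0 to 6 with DESeq2, 4 without a filter, 7 with the replicate block, 1 with the GC correction and 8 with the GC correction and the replicate block together, and to between 0 and 5 on leaving out a library. Over all genes 53 calls became 485 with DESeq2, 302 without a filter, 675 with the replicate block, 116 with the GC correction and 1055 with both, and 0 to 692 on leaving out a library, the highest without EtOH library 2. Whether an EtOH and a Tet library with equal replicate number form a pair is not known from the titles and was not tested. The correlation between their deviations was positive for each number, at 0.0603, 0.51 and 0.219 for replicates 1, 2 and 3. CHRNB4 turned positive with limma-voom (0.0685), the replicate block (0.0789), the GC correction (0.0128) and the GC correction with the block (0.0784), and ranged from −0.44 to 0.41 on leaving out a library; CHRNB2 ranged from −0.36 to 0.65. The causes were not tested. The CHRNA5 to CHRNA3 difference ranged from −0.234 to 0.0272 on leaving out a library and kept its direction otherwise; the CHRNB4 to CHRNB2 difference kept its direction throughout. Of the 153 alternative values for the 9 named pathway genes, 31 passed the threshold and none turned direction. The 9 were chosen by their unadjusted p in the same libraries, so a kept direction is no separate support. They include CHRNA9 and LYPD6B, which passed the filter through 1 group only, and calls of CHRNA9 are among the 31. Depth limits CHAT, SLC18A3, SLC5A7, ACHE and CHRNA4, which had 6 to 37 counts in all.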
